A study of Mus musculus with 16 samples.

Results

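The chromatin around 9 mouse receptor genes of neuronal and stem cell growth factors was followed here: Ntrk2, Ntrk3, Ngfr, Ret, Gfra1, Gfra2, Gfra3, Kit and Alk. The members were the ATAC-seq peaks, among those the authors listed as more opened or more closed in non-neuroendocrine (non-NE) cells, whose centre had a start site of 1 of these genes as its nearest protein-coding start site. There were 116 such peaks among 80367 listed peaks, and 8 of the 9 genes had at least 1. Of the 116, 34 were opened and 82 were closed in the non-NE cells, so that 29.3% were opened (95% Wilson interval 21.8 to 38.2%), against 50.8% of all listed peaks.

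The cells were small cell lung cancer (SCLC) cells from tumors of TKO;Hes1GFP/+ mice. Cre from an adenovirus with a CMV promoter, given through the trachea, removes the floxed Rb, p53 and p130 alleles in these mice, and GFP reports the expression of Hes1, a target of Notch signaling. Both groups carried the deletions and the reporter, came from the same pooled tumors and differed in the sort: Hes1-GFP+ (GFPhigh) cells are the non-NE cells and Hes1-GFP- (GFPneg) cells the neuroendocrine (NE) cells. Cells positive for CD45, CD31 or TER-119 were gated out, and CD24 was the marker used for positive selection. The labels gave 16 runs, which are 8 libraries on 2 lanes each, with 4 libraries per group in 4 pairs from 3 mice, and 2 of the pairs came from 1 mouse. ATAC-seq reads pile up where the Tn5 transposase can enter open chromatin. The files used here hold no values of single libraries, and the 1 value per peak taken from them is a mean over all libraries. The spread between libraries and the depth of each are therefore unknown here, and no result below has a test. The intervals cover counting error only, and neighbouring peaks are not independent. A peak that closes may be less open in each cell or open in fewer cells, and these cannot be told apart in sorted populations.

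Ntrk2 and Ntrk3 encode TrkB and TrkC, receptor tyrosine kinases that bind the neurotrophins BDNF and NT-3. Ngfr encodes p75, a receptor of the tumor necrosis factor receptor family that binds all neurotrophins. Ret is the signaling kinase for ligands of the GDNF family, which it meets through the membrane-anchored coreceptors of the Gfra genes. Kit is the receptor of stem cell factor, known from blood, germ and mast cells and also found on many SCLC cells, and Alk is a receptor tyrosine kinase of the developing nervous system. Open promoters mark genes that can be transcribed, and open sites away from promoters often act as enhancers, although the nearest gene need not be the one they act on.

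A stretch of sequence at each of 4 start sites is printed because promoter peaks were opened at some receptors and closed at others. These are + strand sequences of GRCm38 (mm10), cut to at most 200 bases, with exons left out. Capitals mark an exact match to a motif named further on.
Ngfr promoter, opened, chr11:95587736-95587901: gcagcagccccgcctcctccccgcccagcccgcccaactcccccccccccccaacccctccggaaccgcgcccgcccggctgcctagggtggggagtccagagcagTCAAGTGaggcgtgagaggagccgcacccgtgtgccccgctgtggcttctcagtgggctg
Kit promoter, closed, chr5:75574716-75574915: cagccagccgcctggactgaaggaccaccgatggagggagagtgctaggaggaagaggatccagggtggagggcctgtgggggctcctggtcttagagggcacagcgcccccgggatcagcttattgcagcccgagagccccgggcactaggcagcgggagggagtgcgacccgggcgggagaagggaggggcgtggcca
Gfra2 promoter, closed, chr14:70889814-70890013: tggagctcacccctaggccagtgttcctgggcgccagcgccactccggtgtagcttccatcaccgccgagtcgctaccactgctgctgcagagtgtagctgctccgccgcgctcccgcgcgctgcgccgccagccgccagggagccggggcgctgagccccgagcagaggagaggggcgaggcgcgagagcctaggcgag
Ntrk3 promoter, closed, chr7:78577304-78577497: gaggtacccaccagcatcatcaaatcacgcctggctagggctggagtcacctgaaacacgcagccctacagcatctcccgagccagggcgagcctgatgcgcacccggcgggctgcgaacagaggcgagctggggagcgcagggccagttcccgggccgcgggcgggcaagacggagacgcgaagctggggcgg

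The centres of 6 peaks away from promoters are printed because each had the highest signal of its gene in its list. Each is 200 bases long, in the same format.
Ntrk2 intron, opened, chr13:58840987-58841186: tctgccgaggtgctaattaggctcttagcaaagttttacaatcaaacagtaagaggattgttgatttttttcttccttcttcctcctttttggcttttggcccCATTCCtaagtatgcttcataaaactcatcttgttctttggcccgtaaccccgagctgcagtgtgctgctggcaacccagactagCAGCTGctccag
Gfra1 intron, opened, chr19:58382503-58382702: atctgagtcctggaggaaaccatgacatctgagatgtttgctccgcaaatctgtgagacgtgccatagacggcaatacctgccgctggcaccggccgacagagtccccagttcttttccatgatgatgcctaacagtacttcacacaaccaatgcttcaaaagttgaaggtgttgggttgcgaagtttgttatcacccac
Kit upstream, opened, chr5:75544794-75544993: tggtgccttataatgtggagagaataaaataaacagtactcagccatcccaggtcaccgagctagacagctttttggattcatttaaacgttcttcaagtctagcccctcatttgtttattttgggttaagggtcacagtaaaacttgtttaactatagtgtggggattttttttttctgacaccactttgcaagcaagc
Alk upstream, opened, chr17:72648734-72648933: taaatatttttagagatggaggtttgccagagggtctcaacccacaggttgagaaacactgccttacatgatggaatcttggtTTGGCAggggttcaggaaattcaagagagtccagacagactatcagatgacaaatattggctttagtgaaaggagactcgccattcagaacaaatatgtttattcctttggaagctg
Ntrk3 intron, closed, chr7:78542550-78542749: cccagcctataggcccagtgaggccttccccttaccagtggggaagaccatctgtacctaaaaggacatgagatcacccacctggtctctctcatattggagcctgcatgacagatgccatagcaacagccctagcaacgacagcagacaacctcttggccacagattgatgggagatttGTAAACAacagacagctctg
Ret intron, closed, chr6:118192433-118192632: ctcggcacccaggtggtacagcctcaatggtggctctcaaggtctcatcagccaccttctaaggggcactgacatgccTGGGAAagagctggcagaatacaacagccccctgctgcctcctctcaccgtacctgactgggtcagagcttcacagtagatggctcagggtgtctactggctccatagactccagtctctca

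The Ngfr stretch holds an NKX2 match. The other 3 promoter stretches hold none of the motifs searched. Over the 9 peaks within 1 kb of a receptor's own start site, the median GC content was 66.9% (range 53.9 to 73.1%), with a median of 7.03 CpG per 100 bp. The other 107 receptor peaks had a median GC content of 48.2% (36.8 to 61.4%) and 1.26 CpG per 100 bp. Opened and closed promoters were both among the GC-rich ones: the Ngfr peak had a GC content of 72.5% and the Gfra2 peak of 73.1%.

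The promoters of 3 receptor genes were opened in GFPhigh cells, those of 4 were closed, and Gfra1 and Gfra3 had no listed promoter peak. Opened peaks lay at starts of Ntrk2, Ngfr and Alk. Closed peaks lay at starts of Kit, Ret, Ntrk3 and Gfra2. Among all 21924 protein-coding genes, 26.6% had an opened peak within 1 kb of a start site and 8.43% had a closed one. No receptor gene had both. The share of all genes with both was not counted and cannot exceed 8.43%, so none is unremarkable among 9 genes. Only differing peaks are in the lists, so the accessibility of a promoter without a listed peak was not measured here.

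**Figure D1:**
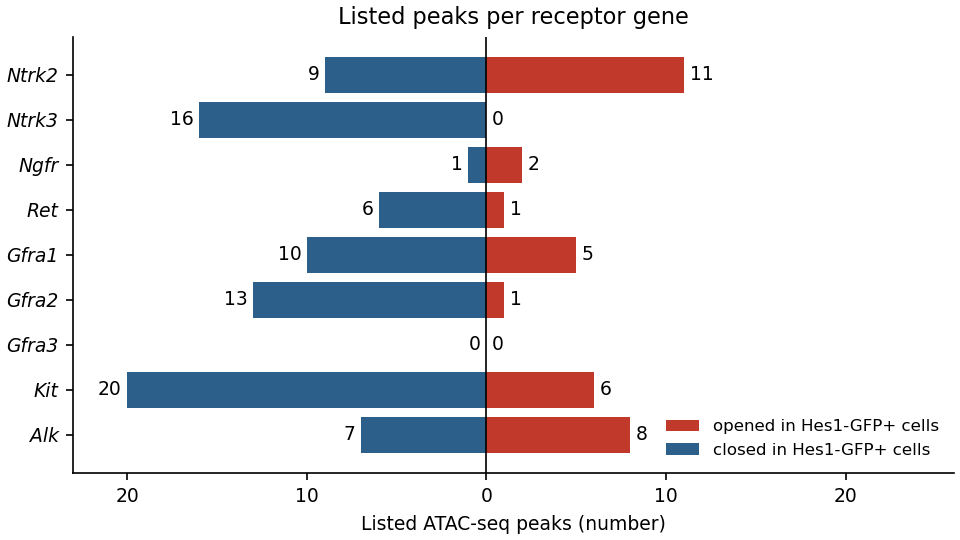
Number of listed ATAC-seq peaks assigned to each receptor gene, opened in Hes1-GFP+ cells to the right and closed to the left, with the counts beside the bars. Kit had the most closed peaks (20), Ntrk3 had 16 closed and 0 opened, and Ntrk2, Ngfr and Alk had more opened than closed peaks.

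Among the neurotrophin receptors, Ntrk2 was mixed and Ntrk3 was closed throughout. Ntrk2 (ENSMUSG00000055254.15) spans chr13:58806569-59133970 on the + strand and had 11 opened and 9 closed peaks. Its promoter peak, at chr13:58808437-58808805, was opened and was centred 70 bp upstream of the most downstream of its annotated starts and 2.05 kb from the 5′ end of the gene record. The authors' mean there was 64.1 normalized reads. This mean, given as signal below, is the average over all libraries of both groups, so it says how many reads a peak drew and not which group had more. The highest opened peak was intronic, 32.4 kb downstream of that start, with a signal of 73.7, and is the stretch printed above with a TEAD match and an E-box.

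Inside Ntrk2, 9 opened and 6 closed peaks alternated, apart from the promoter, and the 20 peaks of the gene fell into 10 runs of the same direction, the longest with 4 peaks. The strongest closed peak inside the gene had a signal of 63.6, at 163 kb. The highest closed peak of the gene, with a signal of 80.8, lay past the 3′ end at 337 kb and was centred 48 bp from the start of Gm34307. A closed peak at 339.9 kb lay 760 bp inside Gm34354. These sites belong to Ntrk2 by the nearest protein-coding start, and the annotation places them at other transcripts. With at least 20 normalized reads required, 4 of 12 Ntrk2 peaks (33.3%) remained opened in place of 55.0%.

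Ntrk3 (ENSMUSG00000059146.12), at chr7:78175959-78738012 on the - strand, had 16 closed peaks and no opened peak (0%, 95% Wilson interval 0 to 19.4%). Of 2349 genes with at least 10 listed peaks, 257 (10.9%) had closed peaks only. Of all listed peaks on chromosome 7, 48.3% were opened. The promoter peak of Ntrk3, at chr7:78577304-78577497, was centred 383 bp inside the nearest annotated transcript of the gene and had a signal of 41.5. The gene record begins 161 kb upstream of this peak, where the annotation used has no start site of Ntrk3. The highest peak, with a signal of 126, was intronic at chr7:78542443-78542855, 35.1 kb downstream of the start. It is the printed stretch with a FOX match, and with 30.5 reads per 100 bp it was the densest receptor peak. Another intronic peak at 40.4 kb had a signal of 50.1. The 10 peaks past the 3′ end lay 418 to 1038 kb from the start, in a gene-poor stretch towards Agbl1, with signals of at most 25.5.

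Ngfr (ENSMUSG00000000120.6), at chr11:95568818-95587735 on the - strand, had 3 listed peaks. The opened peak at chr11:95587516-95587901 covered the start site, with its centre 27 bp inside the gene and a signal of 69.4. A closed peak with a signal of 33.1 lay in the intron 2.40 kb downstream, in sequence that is also CpG-rich (7.44 CpG per 100 bp). A further opened peak lay 30.4 kb downstream, with a signal of 12.5. Chromosome 11 had a high share of opened peaks, 71.1%. Ngfr is also a marker of basal cells of the airway. At 5 basal cell markers 17 of 32 listed peaks (53.1%) were opened, against 50.8% of all listed peaks. The only listed promoter peak of these markers, at Dapl1, was closed, and Krt14 had no listed peak. The part of such cells in the Ngfr result was not tested.

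**Figure D2:**
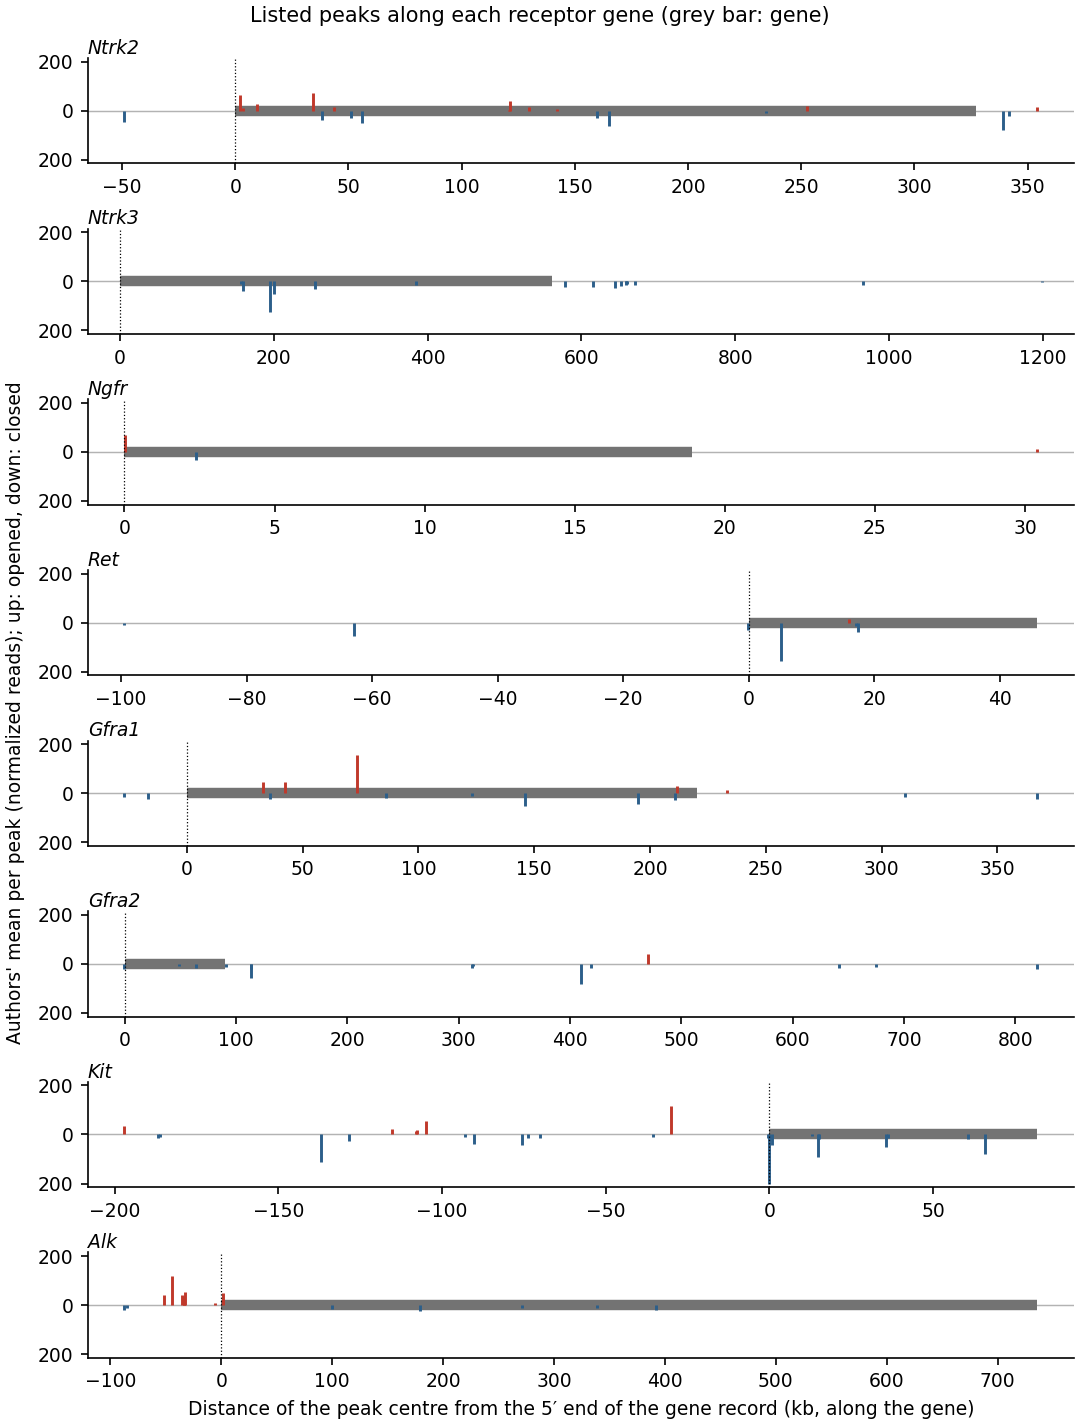
Listed peaks along the 8 receptor genes that had any, by distance of the peak centre from the 5′ end of the gene record (kb, along the direction of the gene, a different scale in each panel), with the authors' mean in normalized reads as line height, upward for opened and downward for closed peaks. The grey bar is the gene. The Kit body holds closed peaks only, the opened Alk peaks form a block at and upstream of the start, and all Ntrk3 peaks point down.

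Among the GDNF receptors, Gfra2 was mostly closed, Gfra1 was mixed, and the direction at Ret depended on how peaks were assigned. Ret (ENSMUSG00000030110.13), at chr6:118151745-118197718 on the - strand, had 6 closed peaks and 1 opened peak. The closed promoter peak was centred 127 bp upstream of the start, with a signal of 28.4. The highest Ret peak, at chr6:118192247-118192817, was closed and lay in an intron 4.60 kb downstream of the nearest start. Its signal of 157 was the second highest of all receptor peaks, and its printed centre holds 1 RBPJ match. A closed exonic peak lay at 16.9 kb (signal 39.2) and a closed upstream peak at 62.9 kb (53.0). The opened peak, in an intron at 15.4 kb, had a signal of only 14.1, between closed peaks, and no opened peak was left when at least 20 normalized reads were required. When peaks within 10 kb of the gene body were taken, 2 closed upstream peaks dropped out and 3 opened peaks nearer to another start site came in, so that 4 of 8 peaks (50%) were opened in place of 14.3%.

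Gfra1, the coreceptor with the highest affinity for GDNF itself, spans chr19:58235604-58455909 on the - strand (ENSMUSG00000025089.15) and had 5 opened and 10 closed peaks, with none within 1 kb of its starts. The highest was opened, in an intron 71.9 kb downstream of the nearest start, with a signal of 156. At 900 bp it was the widest receptor peak, and its printed centre holds no motif match, while the whole peak holds TEAD, AP-1, NFI and NKX2 matches. Opened intronic peaks at 31.6 and 41.0 kb had signals of 45.0 and 46.9. The highest closed peak lay deeper in the gene, at 145 kb, with a signal of 53.8. Among these 3 strongest opened peaks lay 1 closed peak, at 34.5 kb (25.0), and 5 closed peaks in a row followed at 84.3 to 209.5 kb. Nearer to the start, 2 closed peaks lay 17.4 and 27.5 kb upstream, with signals of 23.6 and 14.2.

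Gfra2, the coreceptor for neurturin, spans chr14:70890120-70979838 on the + strand (ENSMUSG00000022103.10) and had 13 closed peaks and 1 opened peak. The closed promoter peak was centred 207 bp upstream of the start, with a signal of 19.4 and 10.4 CpG per 100 bp, the highest CpG density of the receptor peaks. Of the 14 peaks, 11 lay past the 3′ end, 39.3 to 768 kb from the nearest start, in a gene-poor stretch. The highest had a signal of 82.8, at 358 kb, and the opened peak a signal of 41.3, at 418 kb. Of the 6 peaks within 100 kb of a start, 0 were opened. Gfra3, the coreceptor for artemin, had no listed peak. Its start sites are nearest to 42.3 kb of genome, while 33.4% of protein-coding genes had no listed peak either.

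Kit had the most listed peaks of the 9 genes, 26, and its direction followed position. Kit (ENSMUSG00000005672.12) spans chr5:75574916-75656722 on the + strand. All 3 promoter peaks and all 7 peaks inside the gene were closed, which made a run of 10. The promoter peaks had signals of 12.9, 201 and 41.9. The middle one, at chr5:75574579-75575247, was centred 3 bp upstream of the start and had the highest signal of all receptor peaks. The strongest peaks in the gene body were intronic, at 14.7 kb (91.6) and 65.7 kb (79.6).

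Upstream of Kit, 6 opened and 10 closed peaks lay 30.0 to 197 kb from the start. The opened peak nearest to the gene, 30.0 kb upstream at chr5:75544568-75545219, had a signal of 115 and was 652 bp wide. A group of 4 opened peaks lay 105 to 115 kb upstream, with signals of 13.4 to 56.1, and another lay at 197 kb (34.4). The highest closed upstream peak lay at 137 kb, with a signal of 112. Within 100 kb of the start, 1 of 17 peaks (5.88%) was opened, against 23.1% at all distances. The stretch assigned to Kit lies between Pdgfra and Kdr, which encode related receptor kinases, and peaks upstream of Kit may serve another gene. Pdgfra had 5 closed peaks and no opened one. Kdr had 7 opened and 11 closed peaks, and its promoter peak was opened, with a signal of 228.

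Mast cells carry Kit on their surface and endothelium carries Kdr, so their markers were counted. At 7 mast cell markers there were 7 listed peaks, 4 of them opened (57.1%, against 50.8% of all listed peaks). Hdc had an opened promoter, and Mcpt4, Tpsb2, Fcer1a and Ms4a2 had no listed peak. At 5 endothelial markers 32 of 40 peaks were closed (80.0%, against 49.2% of all listed peaks), 23 of these at Cdh5. The only listed promoter peak at these markers, at Tek, was closed. The part of these cells in the Kit result was not tested.

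Alk had opened chromatin at and before its start and weak closed peaks in its body. Alk (ENSMUSG00000055471.7) spans chr17:71868972-72604627 on the - strand and had 8 opened and 7 closed peaks. The promoter peak, at chr17:72603253-72603433, was opened, centred 484 bp inside its annotated transcript, in an exon, with a signal of 48.9 and 27.0 reads per 100 bp. The other 7 opened peaks lay 6.51 to 52.7 kb upstream, and the 8 formed 1 unbroken run. The highest had a signal of 118, at 45.0 kb, and is the printed stretch with an NFI match. A group of 4 lay within 33.5 to 35.9 kb, with signals of 28.2 to 54.9. The 5 closed intronic peaks, 99.0 to 391 kb inside the gene, had signals of 9.91 to 23.2, and the 2 closed peaks upstream of the run, at 85.3 and 88.0 kb, 12.8 and 18.1. With at least 20 normalized reads required, 7 of the remaining 8 peaks (87.5%) were opened. When peaks within 10 kb of the gene body were taken, 26.3% of 19 peaks were opened: 6 opened and 2 closed upstream peaks dropped out, and 3 opened and 9 closed peaks nearer to another start site came in.

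Peak number also differed between the genes. Kit had 63.2 listed peaks per Mb of the genome nearest to its starts, Ret 49.8, Ntrk2 42.7, Ngfr 39.4, Gfra1 33.3 and Alk 28.4. Gfra2 had 15.8 and Ntrk3 13.5. Over all protein-coding genes the median was 27.8 per Mb, with quartiles of 0 and 68.4, so no receptor gene was above the upper quartile. By number, without regard to length, 1.58% of protein-coding genes had at least as many listed peaks as Kit and 37.9% as many as Ngfr.

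The receptor peaks lay farther from start sites than listed peaks in general, and listed peaks far from starts were more often closed. Of the receptor peaks 27.6% lay more than 200 kb from the nearest protein-coding start, against 9.71% of all listed peaks. Beyond 200 kb, 15.6% of receptor peaks and 27.6% of all listed peaks were opened. From 50 to 200 kb the shares were 28.9% and 40.6%, and from 1 to 50 kb 40.5% and 54.5%. Within 1 kb, 3 of 9 receptor peaks (33.3%) were opened, against 74.3% of all. The receptor share was below that of all listed peaks in each of the 4 distance ranges, but only within 1 kb did its Wilson interval (12.1 to 64.6%) leave out the share of all listed peaks. If each distance range had the opened share of all listed peaks, 44.1% of receptor peaks would be opened. With the shares of the receptors' chromosomes it would be 52.8%.

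**Figure D3:**
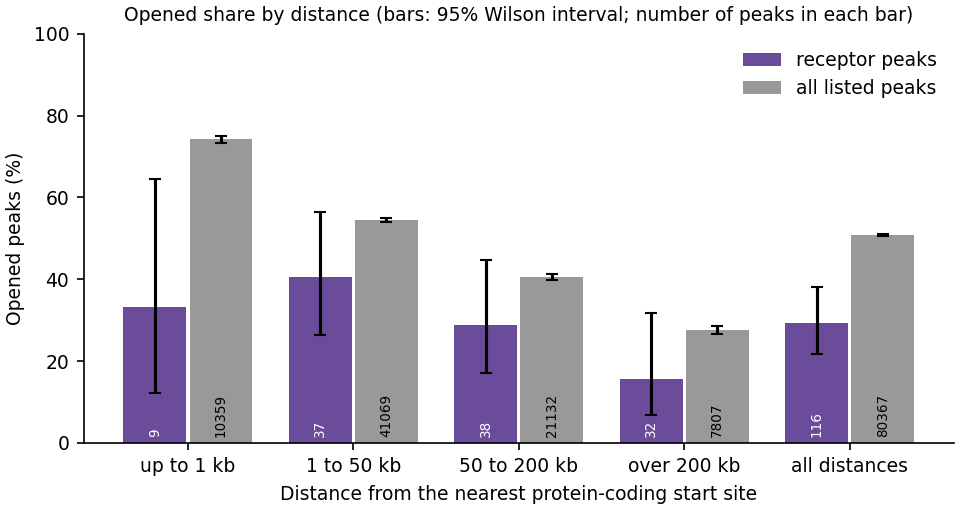
Share of opened peaks (%) among the receptor peaks and among all listed peaks, by distance from the nearest protein-coding start site, with 95% Wilson intervals and the number of peaks written in each bar. The receptor bar is lower in every range, with wide intervals on 9 to 38 peaks, and over all distances it stood at 29.3% against 50.8%.

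By position, 13 of 30 peaks upstream of a receptor gene were opened, 14 of 49 inside it away from the promoter, and 4 of 28 past its 3′ end. The same positions were not counted over all listed peaks, so whether these counts are particular to the receptors is unknown. These counts rest on a few genes: the 13 opened upstream peaks were 7 at Alk and 6 at Kit, and of the 24 closed peaks past a 3′ end 10 were at Ntrk3 and 10 at Gfra2. Promoters of any gene made up 9.48% of receptor peaks and 16.1% of all listed peaks. Introns made up 44.0% and 46.8%, exons 3.45% and 3.54%, and intergenic sequence 43.1% and 33.6%.

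Receptor peaks were weaker and narrower than listed peaks in general. The median signal was 31.7 normalized reads for opened and 19.1 for closed receptor peaks, against 40.7 and 25.8 over all listed peaks. Median widths were 294 and 224 bp, against 300.0 and 248 bp. Per 100 bp, the median was 9.60 reads over the receptor peaks and 12.2 over all. Only 7 receptor peaks (6.03%) had a signal over 100, against 17.5% of all listed peaks: 4 closed ones at Kit (201 and 112), Ret (157) and Ntrk3 (126), and 3 opened ones at Gfra1 (156), Alk (118) and Kit (115).

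Motifs were searched as exact letters on either strand in the central 200 bp of each peak. TEAD proteins, the partners of YAP1, were searched as GGAATG. This was found in 8.82% of opened and 8.54% of closed receptor peaks, against 18.1% and 8.78% over all listed peaks, and the interval for the 34 opened peaks (3.05 to 23.0%) includes 18.1%. In the whole peak it was found in 17.6% of opened and 12.2% of closed receptor peaks, against 25.4% and 12.0% of all. The 3 opened peaks with a match in the central window were 2 in introns of Ntrk2 and 1 upstream of Kit, at 105 kb. The FOX letters TGTTTAC were found in 16 of the 116 receptor peaks, 13.8% (8.67 to 21.2%), against 8.25% of all listed peaks. In the whole peak the shares were 13.8% and 10.4%, which the interval includes. Of the 16 in the central window, 12 were closed, among them the strongest Ntrk3 peak. By list, the central window gave 11.8% of opened (4.67 to 26.6%) and 14.6% of closed receptor peaks (8.57 to 23.9%). All listed peaks had 6.85% and 9.70%, which these intervals include.

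AP-1 sites, TGACTCA or TGAGTCA, were found in 1 opened (2.94%) and 12 closed (14.6%) receptor peaks, against 8.45% and 21.2%. In the whole peak the shares were 11.8% and 14.6%, against 12.0% and 24.1%, so that the small share in opened receptor peaks depended on the window. The whole-peak interval for closed receptor peaks (8.57 to 23.9%) leaves out the 24.1%. The letters of RBPJ, the DNA-binding partner of Notch, TGGGAA, were in 14.7% and 20.7%, against 20.7% and 16.3%. In the whole peak they were in 14.7% of opened receptor peaks (6.45 to 30.1%), against 30.6% of all opened ones, which lies just outside the interval, and in 25.6% of closed receptor peaks, against 21.5%. The RBPJ and TEAD letters share GGAA. NFI, TTGGCA, was found in 20.6% and 18.3% (all listed, 18.0% and 13.4%). In the whole peak it was found in 35.3% of opened receptor peaks (21.5 to 52.1%), against 24.7% of all opened ones, which the interval includes. Among closed peaks the whole-peak share was 17.1% for the receptors and 17.1% for all. RUNX, TGTGGTT, was found in 14.7% and 6.10% (8.35% and 3.58%). NKX2, CACTTGA or CACTTAA, was found in 17.6% and 6.10% (10.5% and 7.73%), and the E-box CAGCTG in 20.6% and 19.5% (12.0% and 22.6%). The half-site of the repressor REST, TCAGCACC, was found in 4 receptor peaks, 1 opened and 3 closed: the Alk promoter, the strongest closed peak upstream of Kit, the peak upstream of Ntrk2 and the farthest Gfra1 peak. Over all listed peaks it was in 1.16% of opened and 1.82% of closed ones. A match is a string of letters and not a bound site.

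**Figure D4:**
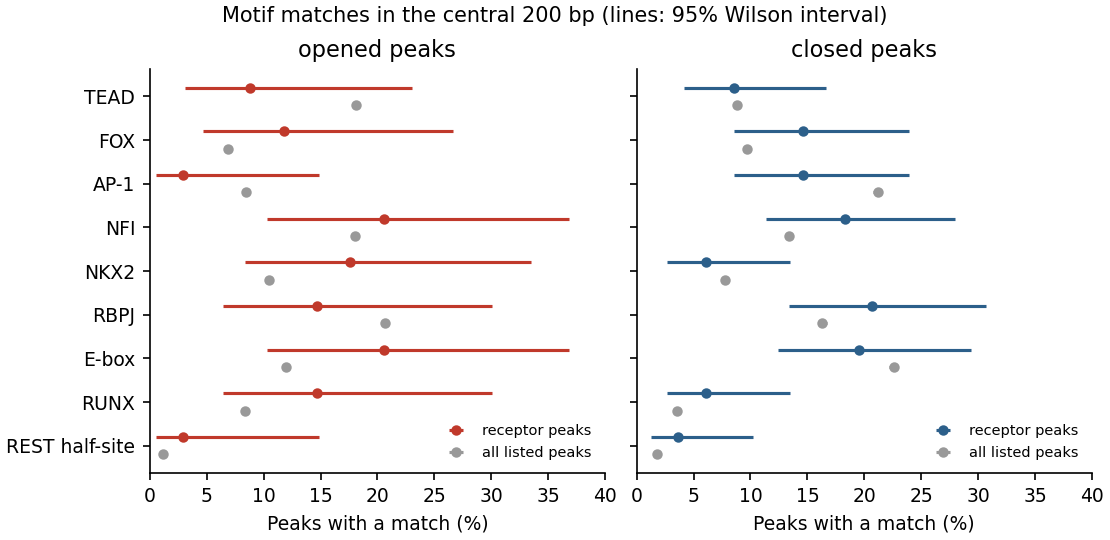
Share of peaks (%) with an exact motif match in the central 200 bp, for opened peaks on the left and closed peaks on the right, with 95% Wilson intervals. Coloured points are the 34 opened or 82 closed receptor peaks and grey points are all listed peaks. The receptor intervals are wide, and each of them includes the grey point.

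The genes that act with these receptors did not share their direction as a group. Of 425 peaks at 58 such genes, 210 (49.4%) were opened, close to the 50.8% of all listed peaks. The 3 roles differed in their counts. Of the peaks at 29 adaptors and enzymes 65.9% were opened, of those at 14 ligands 52.5%, and of those at 15 other receptors and coreceptors 25.4%. Of the 134 peaks in this last list, 35 belonged to Sorcs1 and 22 to Sorcs3, and without these genes 33 of 77 (42.9%, 95% Wilson interval 32.4 to 54.0%) were opened.

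Opened promoter peaks of ligand genes were listed for, among others, Ntf5 (signals of 82.1 and 41.5), Gdnf (20.9), Artn (36.8 and 226), Gdf15 (58.2) and Mdk (14.0 and 13.6). Bdnf, which encodes a ligand of TrkB but not its only one, had 4 closed promoter peaks with signals of 15.5 to 46.0. Ptn, which encodes the heparin-binding factor pleiotrophin, had 20 closed peaks and no opened one. Kitl, which encodes stem cell factor, had 15 opened and 3 closed peaks while the Kit promoter and body were closed. Ntf3, which encodes the ligand of TrkC, had 8 opened and 1 closed. Kitl and Ntf3 had no listed promoter peak and are named as ligands of receptors described above, after their values were seen.

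Among the other receptors, the sortilin relatives went in different directions. Sorcs1 had 35 closed peaks and none opened, with a closed promoter peak of 290.1 normalized reads. Sorcs3 had 21 closed and 1 opened, with 2 closed promoter peaks. Sort1, which encodes the proneurotrophin coreceptor sortilin, had 3 opened peaks and no closed one, and Sorcs2 had 10 opened and 6 closed, both with opened promoters. Flt3 and Ncam1 had a closed promoter. Of the 29 adaptors and enzymes, 14 had an opened and 2 a closed promoter, against 26.6% and 8.43% of all protein-coding genes. Opened ones were, among others, those of Shc1 (511 and 62.7), Grb2 (137, 391 and 13.7), Frs2 (398), Plcg1 (465 and 45.5) and the ubiquitin ligase gene Cbl (514 and 21.9). Cblb had 20 opened and 9 closed peaks. The closed promoters were those of the tyrosine phosphatase gene Ptprd, with 16 closed peaks in all, and Dok5, which encodes an adaptor of Ret.

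The labels of the groups were compared with marker genes. At 9 NE markers 61 of 72 listed peaks were closed in GFPhigh cells, and 7 of the genes, Insm1 and Chgb among them, had a closed promoter and none an opened one. At 8 non-NE and club cell markers 76 of 96 were opened, and all 8 genes, among them Hes1, Scgb1a1 and Yap1, had an opened promoter and none a closed one.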

How the data were processed

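ATAC-seq libraries of Hes1-GFP+ and Hes1-GFP- SCLC cells were grouped by the sample labels. The authors aligned reads to mm10 with Bowtie2 2.3.4.1, called peaks with MACS2 (version not given in the sources used here), merged them, counted reads per merged peak and compared the groups with DESeq2 1.28.1. Their 2 deposited lists give, per peak, a position and a signal, the mean of normalized reads over all libraries. Whether lanes or the pairs of 1 mouse were summed first is not stated. The other 5 columns hold the authors' fold change, its standard error, test statistic, p-value and adjusted p-value, and were not used, so no stricter threshold was tried.

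Positions are 1-based on mm10. Genes came from the basic GENCODE vM21 annotation, and sequences from the GRCm38.p6 genome, where 0 peaks lay beyond a chromosome end. A promoter peak has its centre within 1 kb of a start site. Shares have 95% Wilson intervals. The steps were tested on simulated data. Python 3.11.15, numpy 2.4.6, pandas 2.3.3, scipy 1.17.1, pysam 0.24.0 and matplotlib 3.10.9 were used.

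The members, gene lists and 9 motifs were chosen with earlier results of these data known. Named were the 9 receptor genes, their promoter peaks, the highest peak per gene and list, and, of the pathway genes, those with a promoter peak and the 3 with most peaks. Some further peaks and genes were chosen for naming once their values were known. The shares weighted by distance and by chromosome, and the reads per 100 bp, were added after seeing the data. Alternatives were other assignments of peaks to genes, 1 start site per gene, at least 20 normalized reads, merging within 100 bp, leaving out promoters or each gene, a promoter distance of 3 kb, protein-coding starts only, and whole-peak motif searches. A few genes of the lists, 1 marker list and 1 sequence are not reported here.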

Additional observations from a re-analysis of the deposited data

How the results depend on the processing

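The opened share of the receptor peaks, 29.3%, ranged from 28.8 to 35.0% under 6 other ways of assigning, filtering or merging peaks, and from 24.0% (without Ntrk2) to 34.0% (without Ntrk3) with 1 gene left out. The number of receptor peaks, 116, was 65 within 100 kb of a start site, 76 within 10 kb of the gene body and 60 at 20 or more normalized reads. The opened share of the pathway genes, 49.4%, was 58.3% within 100 kb. Of 48 opened shares of single genes under an alternative, 8 moved by more than their interval. Beyond those given with each gene, the share of Kit was 0% within 10 kb of the gene body (10 peaks), and so was that of Gfra2 (4 peaks). The share of Ret was 50% there (8 peaks) and that of Gfra2 25.0% at 20 or more normalized reads, both within wide intervals. Of 18 motif shares searched in the whole peak, 0 left their interval, but the intervals are wide: in opened receptor peaks TEAD went from 8.82 to 17.6%, AP-1 from 2.94 to 11.8% and NFI from 20.6 to 35.3%, and in closed ones NKX2 from 6.10 to 9.76%. Leaving out Sorcs1 and Sorcs3, chosen after seeing the data, moved the opened share of the other receptors from 25.4 to 42.9%. The promoter share was 14.7% at 3 kb and 7.76% with protein-coding start sites only, against 9.48%, and the median signal was 19.2 away from promoters, against 22.7.

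No paired analysis was possible because the files used here hold no values of single libraries, and for the same reason no library could be left out. Library depth is unknown, and with 3 to 26 listed peaks per gene the intervals on single genes are wide.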

Other observations

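Markers of other cell types were counted in the same way. At 6 leukocyte markers 14 of 19 listed peaks were opened in GFPhigh cells (73.7%, against 50.8% of all listed peaks). Of these 14, 11 were at Ptprc, and no promoter peak was listed. At 5 fibroblast markers 10 of 18 (55.6%) were opened, with an opened promoter at Col1a1 and a closed one at Col1a2. The sort selected CD24-positive cells and removed CD45-positive ones. The part of such cells in the receptor results was not tested.

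Some receptor peaks lay in other transcripts. A closed peak 48.9 kb upstream of Ntrk2 lay in an intron of 4930455J16Rik, with a signal of 47.4. A closed peak 187 kb upstream of Kit lay in an exon of Gm42800, with a signal of 14.0. A closed peak 1.65 kb upstream of the Ntrk3 starts lay in an exon of Gm9885, with a signal of 11.7. The farthest Gfra1 peak, closed, with a signal of 25.3, lay in an intron of Atrnl1.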
